A study of Mus musculus with 4 samples.

Results

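The common gamma chain cytokine receptors were followed in lymphoid tissue inducer (LTi) cells of the mouse small intestine with and without floxed Gata3. The set was chosen by gene symbol and held 9 of the 27179 genes of the table: Il7r, Il2ra, Il2rb, Il2rg, Il15ra, Il4ra, Il9r and Il21r, and Crlf2, which codes for the receptor chain of thymic stromal lymphopoietin (TSLP). RNA was sequenced from 4 libraries of LTi cells sorted from the lamina propria of C57BL/6 mice, of which 2 were Gata3+/+ (control) and 2 were Gata3fl/fl with VavCre (VavCre). Vav directs Cre to blood cells in general, so Gata3 can be deleted in the other blood lineages of these mice as well as in LTi cells. The sort kept lineage-negative cells with CD127 and CCR6 and without KLRG1, NK1.1 and NKp46. CD127 is the protein of Il7r, so Il7r RNA was read in cells already selected for its product. The labels used here do not give age, sex or whether the replicates were separate animals or pools, nor whether the control mice carried VavCre.

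LTi cells are innate lymphoid cells that start the formation of lymphoid tissue, and IL-7 is one of their main survival cytokines. The receptors for IL-2, IL-4, IL-7, IL-9, IL-15 and IL-21 each pair a private chain with the common gamma chain, the product of Il2rg, and signal through the kinases JAK1 and JAK3 to STAT factors, of which STAT5 serves IL-2, IL-7, IL-9 and IL-15. TSLP is read by Crlf2 paired with Il7r, without the gamma chain, and the IL-2 and IL-15 receptors share Il2rb. GATA3, whose gene is floxed here, guides T cell and innate lymphoid development and has been linked to IL-7 receptor expression.

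The libraries held 14294708 and 12670034 reads in control and 24315878 and 23973995 reads in VavCre cells, and all 9 chains passed the filter on low values with 14286 genes in all. Gata3 itself stood at 84.3 and 50.7 RPKM (reads scaled by gene length and library total) in control and at 34.5 and 23.3 RPKM in VavCre libraries, and did not pass the test (adjusted p = 0.0914 in limma). The sources used here do not say which exons are floxed, so a level over the whole gene may not check the deletion. The sort marker gene Ccr6 was present in each library, at 63.3 to 176 RPKM. Genes of markers sorted against also had reads. Ncr1 (NKp46) stood at 6.84 and 14.8 RPKM (control) and 0.0562 and 0.428 RPKM (VavCre). Klrb1c (NK1.1) stood at 0.585 and 7.92 RPKM (control) and 12.1 and 4.22 RPKM (VavCre). Klrg1 was at 1.43 and 0.231 RPKM (control) and 0.452 and 0 RPKM (VavCre). Xist, made from the inactive X chromosome, was at 12.9 RPKM in control replicate 1 and at 0.142 to 0.220 RPKM in the other 3 libraries, while the Y-linked Ddx3y was at 0.467 RPKM there and at 27.5 to 37.3 RPKM in the others. Control replicate 1 therefore stood apart in sex-linked transcripts, and results are also given without it. Many markers of other cells were higher in VavCre libraries on the deposited scale. There 10 of 10 B cell, 9 of 10 epithelial and 5 of 10 T cell markers passed the test, beside 8.29% of all tested genes called higher. After median-ratio scaling 1, 5 and 0 passed, beside 0.56%. As deposited, higher and lower calls were 2 and 0 of 6 plasma cell, 1 and 1 of 4 ILC2 and 0 and 2 of 6 ILC1 and NK genes. They were 1 and 2 of 14 LTi and ILC3 genes, beside 8.29% and 0.686% of all tested genes. Of myeloid genes 0 of 9 passed and of stromal genes 0 of 7. At an unadjusted p under 0.05 in limma 3 and 0 of these stood, beside 30.5% of all tested genes. The median tested gene lay 0.43 log2 units higher in VavCre libraries as deposited and 0.04 higher once median-ratio scaling was applied, which sets the typical gene equal between libraries, so both scales are given below.

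None of the 9 chains passed limma's test at an adjusted p under 0.05, on either scale. On the deposited scale both VavCre libraries lay below both controls for Il7r, Il2rb and Il4ra, and above them for Il21r, Il9r and Crlf2. Il2ra, Il2rg and Il15ra overlapped between the genotypes. Of all tested genes limma called 8.98% as deposited, 8.29% higher and 0.686% lower. With median-ratio scaling it called 0.98%, 0.56% higher and 0.42% lower. At an unadjusted p under 0.05 in limma 4 chains stood (Il7r, Il2rb, Il9r and Il21r), against 30.5% of all genes, and 6 after median-ratio scaling (also Il2rg and Il4ra), against 22.6%. On reads recovered from the values, limma-voom called 0 chains with 4 at an unadjusted p under 0.05, and with median-ratio scaling it called 1, Il2rb, lower, against 0.651% of all genes called and 0.455% called lower, with 4 chains at an unadjusted p under 0.05 against 21.4%.

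The 2 scales gave different pictures of direction. As deposited, 3 chains were higher and 3 lower without overlap between genotypes, where 53.8% of all tested genes were higher and 7.61% lower. After median-ratio scaling 7 chains were lower in both VavCre libraries, where 25.6% of tested genes were, and 2, Il21r and Il9r, were higher, where 29.7% were. The median of the 9 log2 differences was −0.09 beside 0.43 for all genes on the deposited scale and −0.54 beside 0.04 after scaling. Without control replicate 1 the log2 differences as deposited were −0.54 for Il7r, −0.78 for Il2rb, −0.42 for Il4ra, 0.11 for Il2rg, 0.43 for Il15ra, 0.34 for Il2ra, 0.47 for Crlf2, 0.93 for Il9r and 2.38 for Il21r, so Il2rg and Il15ra changed sign, and limma called 0 chains with 0 at an unadjusted p under 0.05. After median-ratio scaling Il7r then lay at −1.21, Il2rb at −1.46, Il4ra at −1.09 and Il21r at 1.71. Lower RNA of a chain can mean fewer cells that carry it or less RNA per cell, which cannot be told apart in bulk samples. Where replicates are not known to be separate animals, the p-values measure only the spread between these 4 libraries.

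**Figure D1:**
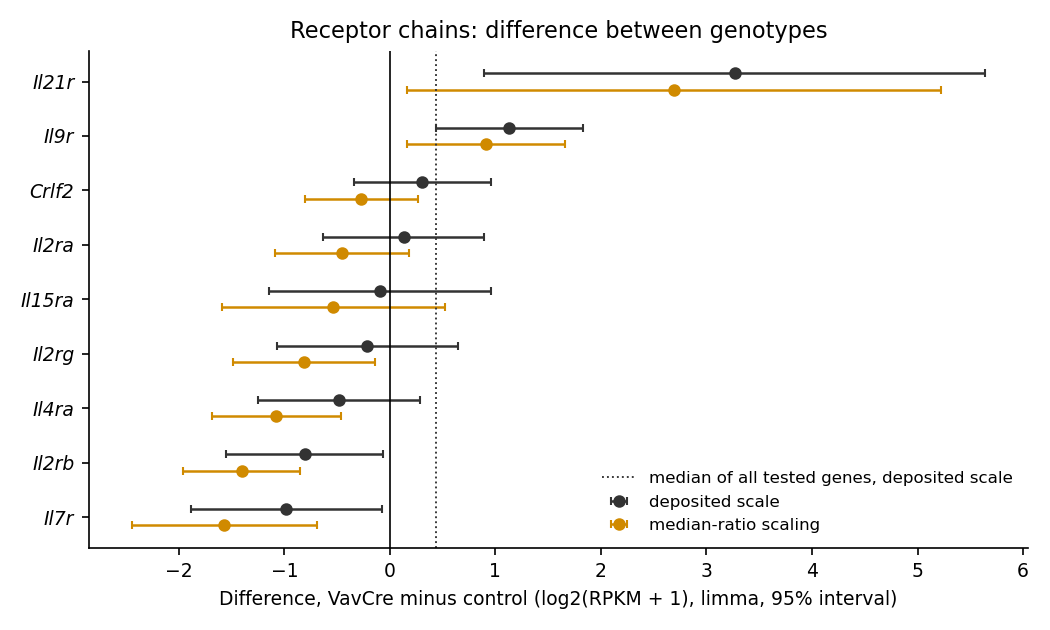
Differences of the 9 receptor chains between VavCre and control libraries, in log2(RPKM + 1), with 95% intervals from limma (n = 2 libraries per genotype), as deposited (black) and with median-ratio scaling (orange). The dotted line marks the median of all tested genes on the deposited scale, 0.43, and 7 of the 9 black points lie to its left.

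Levels spanned nearly the full range of expression. Il2rb was the most abundant in both genotypes, with mean levels of 951 ± 26.3 RPKM in control and 545 ± 67.6 RPKM in VavCre libraries (SD, n = 2). In control libraries it was followed by Il2rg, Il4ra, Il7r, Il2ra, Crlf2, Il21r, Il15ra and Il9r. Neighbours in this order did not overlap in the control libraries, except Crlf2 and Il21r. In VavCre libraries the order was Il2rb, Il2rg, Il4ra, Il21r, Il2ra, Il7r, Crlf2, Il15ra and Il9r, with overlaps between Il4ra and Il21r and between Il2ra and Il7r. By mean level Il2rb lay at percentile 99.7 of the tested genes in control libraries and Il9r at percentile 8.02.

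**Figure D2:**
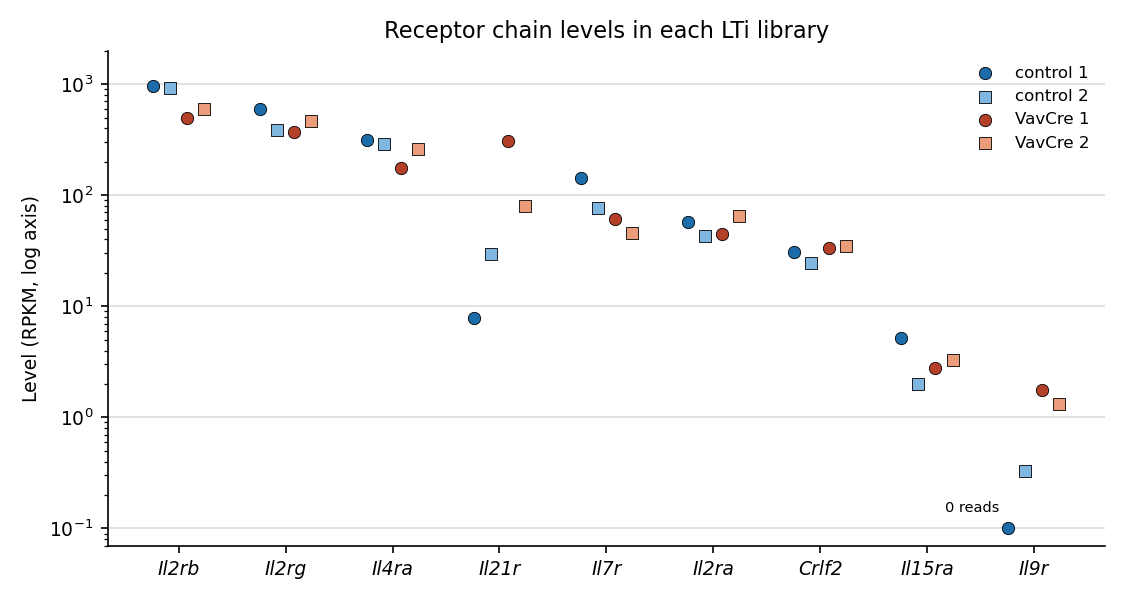
Level of each receptor chain in each of the 4 libraries, in RPKM on a log axis, ordered by mean level. Il2rb, Il2rg and Il4ra lie above 170 RPKM in each library, and Il21r runs from 7.89 to 309 RPKM; a library with 0 reads of Il9r is drawn at the lower edge.

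Il7r, the IL-7 receptor chain that pairs with Il2rg for IL-7 and with Crlf2 for TSLP, was lower in VavCre libraries. It stood at 143 and 77.6 RPKM (control) and 61.2 and 45.7 RPKM (VavCre) (chromosome 15: 9506159 to 9529941, GRCm38). The genotypes did not overlap, and the control libraries were further apart than the VavCre libraries. The means of 110.3 ± 46.3 and 53.5 ± 11.0 RPKM (SD, n = 2) gave a 2.06-fold lower level in VavCre cells on the deposited scale and a 3.05-fold lower level after median-ratio scaling. The log2 differences were −0.98 ± 0.37 (SE, adjusted p = 0.141 in limma, unadjusted 0.0378) and −1.57 ± 0.34 (adjusted p = 0.0912 in limma), neither of which passed.

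The promoter of Il7r is shown because Il7r is the chain whose protein defined the sort and GATA3 a factor linked to it. The 250 bases before its start come from RefSeq (GRCm38.p6, chr15:9529877-9530126, minus strand), a window that reaches into the annotated gene. They are printed 5′ to 3′ with matches to the searched motifs in capitals.
Il7r: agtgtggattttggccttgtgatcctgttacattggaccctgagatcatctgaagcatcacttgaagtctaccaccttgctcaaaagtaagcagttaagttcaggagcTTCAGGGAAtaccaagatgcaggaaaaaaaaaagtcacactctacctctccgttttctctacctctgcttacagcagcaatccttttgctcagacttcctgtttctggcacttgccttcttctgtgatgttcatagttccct
The motifs were AGATAA or its variant AGATAG, with TGATAA or the variant TGATAG, for GATA factors and TTCNNNGAA for STAT factors, each on both strands, and matches of the 2 groups did not overlap here. The Il7r window held 0 GATA matches and 1 STAT match, TTCAGGGAA, which begins 142 bases before the start. Over 32851 such windows of RefSeq genes, 26.5% held a GATA match and 7.02% a STAT match. Windows were found for 8 of the 9 chains and not for Il2rb, and of those 8 chains Il7r was the 1 with a STAT match and Il9r the 1 with GATA matches.

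Crlf2, the chain that binds TSLP together with Il7r, was at 31.0 and 24.6 RPKM (control) and 33.6 and 35.2 RPKM (VavCre) (chromosome 5: 109554709 to 109559128). Both VavCre libraries were above both control libraries on the deposited scale, and both were below them after median-ratio scaling, at 28.7 and 27.3 against 36.0 and 32.0 RPKM. The log2 difference was 0.31 ± 0.27 and turned to −0.27 ± 0.21 after scaling (SE, adjusted p = 0.477 and 0.496 in limma), so its direction rests on the scale. The ratio of Il7r to Crlf2 within a library does not depend on scaling. It was 4.62 and 3.15 in control and 1.82 and 1.30 in VavCre libraries, so Il7r exceeded Crlf2 in each library, and by less in both VavCre libraries.

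The 3 genes whose levels ran closest to those of Il7r were Peak1, a pseudokinase, Pygl, the liver form of glycogen phosphorylase, and D16Ertd472e. Likeness was the root mean square distance between centred log2(RPKM + 1) values over the 4 libraries, which was 0.048 for Peak1 and 0.077 for each of the others. Peak1 stood at 11.0 and 5.86 RPKM (control) and 4.21 and 2.71 RPKM (VavCre). Of 7472 genes compared, 36 lay within 0.2 log2 units of Il7r, so with 4 libraries many genes share its pattern.

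Il2rb, the signalling chain of the IL-2 and IL-15 receptors, was lower in both VavCre libraries. It stood at 969.9 and 933 RPKM (control) and 497 and 592 RPKM (VavCre) (chromosome 15: 78479256 to 78511621), and the gap between genotypes was larger than the gap within either. The level was 1.75-fold lower in VavCre cells on the deposited scale (log2 −0.81 ± 0.31, SE, adjusted p = 0.141 in limma) and 2.65-fold lower after median-ratio scaling (−1.40 ± 0.22, adjusted p = 0.0609). With limma-voom and that scaling it passed, at a log2 difference of −1.41 and an adjusted p of 0.0469. Leaving out any 1 library moved the difference only between −0.94 and −0.68 on the deposited scale.

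Il2rg, the common gamma chain itself, overlapped between genotypes on the deposited scale. It stood at 602 and 385 RPKM (control) and 369 and 467 RPKM (VavCre) (chromosome X: 101264385 to 101268255), with the highest value in control replicate 1. The log2 difference was −0.22 ± 0.35 (SE, adjusted p = 0.717 in limma), with a 95% interval from −1.07 to 0.64. After median-ratio scaling both VavCre libraries were lower, at 314 and 362 against 700.1 and 501 RPKM, and the difference of −0.81 ± 0.26 did not pass (adjusted p = 0.168 in limma).

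Il2ra (CD25), which raises the affinity for IL-2, and Il15ra, which binds and presents IL-15, are neighbours on chromosome 2 (11642792 to 11693194 and 11705172 to 11733985), 11977 bases apart. Il2ra stood at 57.3 and 42.8 RPKM (control) and 44.9 and 65.5 RPKM (VavCre), with VavCre replicate 2 highest. Its log2 difference of 0.13 ± 0.31 (SE) had a 95% interval from −0.64 to 0.89, and turned to −0.46 ± 0.25 after median-ratio scaling (adjusted p = 0.818 and 0.341 in limma). Il15ra was lower than its neighbour in each library, at 5.15 and 1.99 RPKM (control) and 2.76 and 3.29 RPKM (VavCre), which rest on 114, 39, 104 and 122 reads. The genotypes overlapped for Il15ra, and its log2 difference of −0.09 ± 0.43 had a 95% interval from −1.15 to 0.96. After median-ratio scaling both VavCre libraries were lower, at 2.35 and 2.55 RPKM against 5.99 and 2.59, with a log2 difference of −0.54 ± 0.41 (SE, adjusted p = 0.492 in limma).

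Il4ra and Il21r, which code for the private chains of the IL-4 and IL-21 receptors, lie side by side on chromosome 7 (125552271 to 125579474 and 125603252 to 125634397), 23777 bases apart. Neither passed the test, and their differences lay in opposite directions. Il4ra stood at 315 and 288 RPKM (control) and 177 and 262 RPKM (VavCre), so both VavCre libraries were lower. Its log2 difference was −0.48 ± 0.32 (SE, adjusted p = 0.35 in limma) and −1.08 ± 0.24 after median-ratio scaling (adjusted p = 0.0931).

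Il21r had the largest difference of the 9 chains in log2(RPKM + 1). In limma-voom that of Il9r was larger, at 4.70 against 3.39 and, with median-ratio scaling, 4.19 against 2.83. The scaled values had 95% intervals from −0.15 to 8.52 for Il9r and from −0.015 to 5.67 for Il21r. That of Il9r rests on 0 and 13 control reads, so its size is uncertain. Il21r stood at 7.89 and 29.5 RPKM (control) and 309 and 80.0 RPKM (VavCre), from 294, 974, 19606 and 4999 reads. Both VavCre libraries were above both control libraries, but the libraries of each genotype also lay far apart. The means of 18.7 ± 15.3 and 195 ± 162 RPKM (SD, n = 2) differed 10.4-fold, and the log2 difference of 3.27 ± 0.90 (SE) had a 95% interval from 0.89 to 5.64. It did not pass in limma, with an adjusted p of 0.0953 as deposited and 0.203 once scaled (2.69 ± 0.96). The genotypes overlapped for the nearest other gene on each side as deposited, and both genes were lower in both VavCre libraries after median-ratio scaling. Nsmce1, of a DNA repair complex, lies beyond Il4ra and stood at 36.9 and 22.7 RPKM (control) and 25.7 and 37.5 RPKM (VavCre). Gtf3c1, a subunit of a transcription factor of RNA polymerase III that lies 6556 bases from Il21r, stood at 14.7 and 11.8 RPKM (control) and 13.0 and 15.1 RPKM (VavCre).

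The 250 bases before the start of Il21r (RefSeq, GRCm38.p6, chr7:125603179-125603428, plus strand, a window that reaches into the annotated gene) are shown for the chain with the largest difference in log2(RPKM + 1), and held no match to the GATA or STAT motifs searched.
Il21r: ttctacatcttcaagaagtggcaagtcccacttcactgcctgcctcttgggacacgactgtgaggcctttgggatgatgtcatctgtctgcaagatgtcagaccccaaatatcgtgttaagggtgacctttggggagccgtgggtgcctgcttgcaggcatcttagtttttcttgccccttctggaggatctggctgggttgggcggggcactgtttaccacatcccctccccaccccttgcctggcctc

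Il21r is also expressed by T and B cells. On the deposited scale 6 of 10 T cell and 10 of 10 B cell markers were higher in both VavCre libraries, beside 53.8% of all tested genes. The T cell count was near that share. After median-ratio scaling the counts were again 6 and 10, beside 29.7% of all tested genes. The summed level of 10 T cell markers was 104 and 92.9 RPKM (control) and 712 and 360 RPKM (VavCre). In VavCre replicate 2 Lat, an adaptor of T cell receptor signalling, made up 250.3 RPKM of that sum. There Cd3d, Cd6 and Trac lay below both control libraries, with Trac at 11.4 RPKM against 17.7 and 19.2. Cd5 was near the floor in that library, at 5 reads, and in control replicate 1, at 3 reads. The sum of 10 B cell markers was 51.5 and 102 RPKM (control) and 1445 and 1141 RPKM (VavCre), and Cr2, the complement receptor of B cells, had no reads in control replicate 1. VavCre replicate 1 was the highest library for Il21r and for both marker sums, while control replicate 1 was lowest for Il21r and the B cell sum but not for the T cell sum. The part of these cells in the Il21r level was not tested. Over 14 LTi and ILC3 genes the sum was 4192 and 2830 RPKM (control) and 1479 and 1912 RPKM (VavCre), with Il22 the largest part in control.

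**Figure D3:**
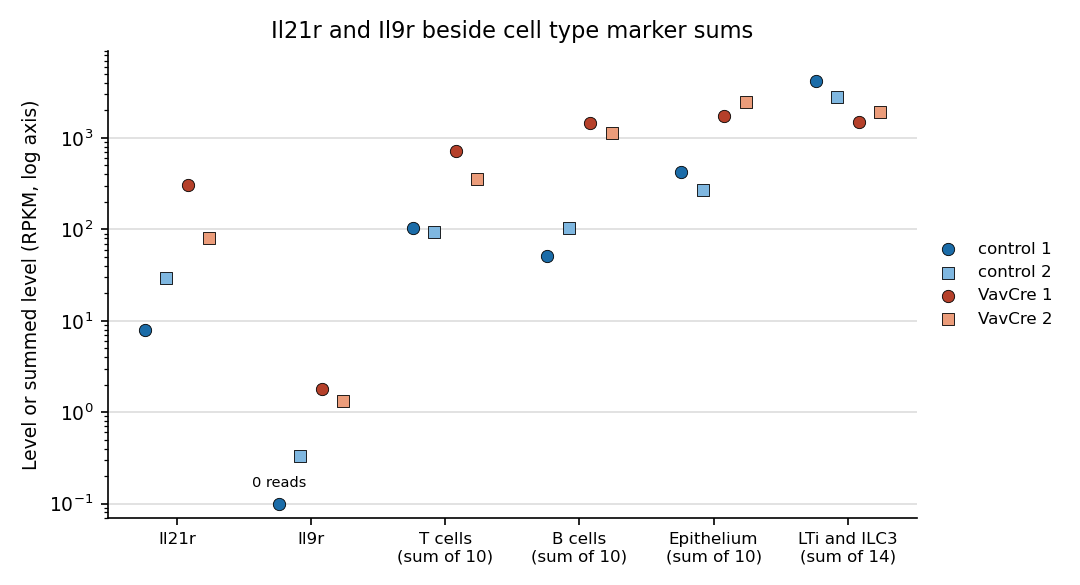
Levels of Il21r and Il9r and summed levels of cell type markers in each library, in RPKM on a log axis (10 T cell, 10 B cell, 10 epithelial and 14 LTi and ILC3 genes). Il21r and the T cell, B cell and epithelial sums are higher in both VavCre libraries, and the LTi and ILC3 sum is lower; a library with 0 reads of Il9r is drawn at the lower edge.

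Il9r, the IL-9 receptor chain (chromosome 11: 32187544 to 32205283), was close to the limit of detection in control cells. It had 0 and 13 reads in control and 133 and 97 reads in VavCre libraries, or 0, 0.332, 1.77 and 1.31 RPKM. Control replicate 1 had no read, where a floor of 3 reads corresponds to 0.21 CPM, reads scaled to the library total, and both VavCre libraries were above both control libraries. The log2(RPKM + 1) difference of 1.13 ± 0.29 (SE), which understates changes of so low a gene, did not pass (adjusted p = 0.0607 in limma) and was 0.91 ± 0.29 after median-ratio scaling (adjusted p = 0.163). Snrnp25 is a gene of the minor spliceosome whose annotated span lies 131 bases beyond that of Il9r. It stood at 20.1 and 13.0 RPKM (control) and 19.5 and 29.3 RPKM (VavCre). Rhbdf1, an inactive rhomboid protease gene 4301 bases away, was like Il9r low in control, at 0.0238 and 0.779 RPKM, and higher in VavCre libraries, at 3.57 and 2.61 RPKM (log2 1.59 ± 0.39, SE, adjusted p = 0.0566 in limma). Epithelial, T and B cell marker sums were higher in the same libraries, and their part in the Il9r level was not tested.

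The 250 bases before the start of Il9r (RefSeq, GRCm38.p6, chr11:32200280-32200529, minus strand, a window inside the annotated gene) are shown because Il9r was the 1 chain whose window held GATA matches, AGATAA beginning 223 and TTATCT, its reverse complement, beginning 30 bases before the start.
Il9r: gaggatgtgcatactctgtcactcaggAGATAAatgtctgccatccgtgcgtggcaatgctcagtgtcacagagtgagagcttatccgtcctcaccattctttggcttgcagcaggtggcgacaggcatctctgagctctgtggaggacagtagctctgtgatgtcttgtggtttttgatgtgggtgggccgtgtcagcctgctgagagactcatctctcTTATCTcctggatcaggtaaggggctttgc

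Ratios within a library compare each chain with the gamma chain in the same bulk RNA, which can come from a mix of cells. Ratios of RPKM do not depend on the scaling, while log2 ratios of RPKM + 1 do so for low genes. Per unit of Il2rg, Il7r and Il2rb were lower in both VavCre libraries and Il2ra, Crlf2, Il21r and Il9r were higher, while Il4ra and Il15ra overlapped. Il7r stood at 0.237 and 0.201 of the Il2rg level in control and at 0.166 and 0.0979 in VavCre libraries. Il2rb exceeded Il2rg in each library, 1.61 and 2.42 times in control and 1.35 and 1.27 times in VavCre libraries. Il2ra stood at 0.0951 and 0.111 of Il2rg in control and 0.122 and 0.140 in VavCre libraries, and Il21r at 0.0131 and 0.0766 against 0.839 and 0.171.

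A lower ratio was less common over all tested genes than a higher one. Taken from RPKM + 1, 4.3% had a lower ratio to Il2rg in both VavCre libraries and 59% a higher one. In log2 units of RPKM + 1 the differences of the ratios were −0.77 for Il7r, −0.59 for Il2rb, 0.34 for Il2ra, 0.52 for Crlf2 and 3.48 for Il21r. With 2 libraries against 2, an exact permutation test (two-sided) cannot give a p below 0.333, which is the value for each of the 6 chains that did not overlap, so the ratios are a description. Within the IL-2 receptor, Il2ra was at 0.0591 and 0.0459 of Il2rb in control and at 0.0904 and 0.111 in VavCre libraries.

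**Figure D4:**
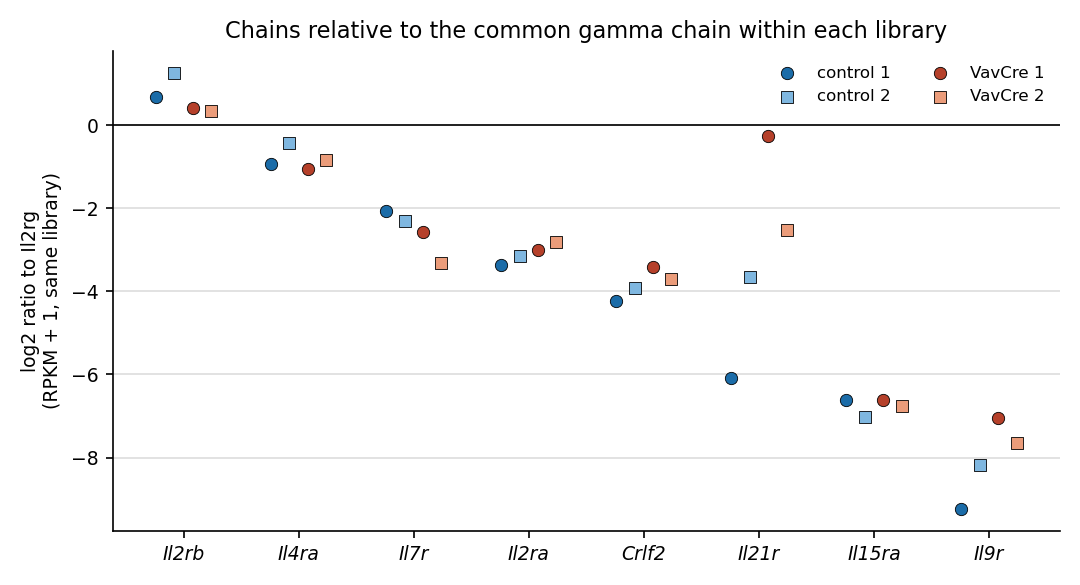
Log2 ratio of each private chain, and of Crlf2, to Il2rg within the same library, from RPKM + 1, with 1 point per library. Il7r and Il2rb are lower and Il2ra, Crlf2, Il21r and Il9r higher in both VavCre libraries.

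Of the ligands, few had enough reads to be read in these cells. Il7 and Il15 were the 2 of 8 ligand genes that passed the filter, at 1.92 and 0.415 RPKM and 2.50 and 2.21 RPKM in control and at 0.980 and 1.01 RPKM and 1.06 and 1.49 RPKM in VavCre libraries. Neither passed limma's test, with log2 differences of −0.03 ± 0.41 and −0.57 ± 0.32 (SE, adjusted p = 0.975 and 0.284). Il15 was lower in both VavCre libraries and Il7 overlapped. Il21, which is made mainly by T cells, had 0 reads in both control and 209 and 6 reads in the VavCre libraries, nearly all in the library with the most Il21r. Il9 had no reads in any library, and Il2, Il4, Il13 and Tslp had too few to enter the test.

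Of the 9 Janus kinases and STAT factors 0 passed limma's test on either scale, where 3 stood at an unadjusted p under 0.05 before scaling beside 30.5% of all genes, and limma-voom with median-ratio scaling called 0. Jak1, which the private chains bind, stood at 100.3 and 84.4 RPKM (control) and 72.8 and 78.0 RPKM (VavCre) (log2 −0.29, adjusted p = 0.502 in limma). Jak3, which binds the gamma chain, stood at 32.2 and 51.5 RPKM (control) and 75.1 and 58.0 RPKM (VavCre) (0.68, adjusted p = 0.217). Stat5a lay at 0.61 (adjusted p = 0.309) and Stat5b at 0.80 (adjusted p = 0.0985). After median-ratio scaling Jak1 lay at −0.88, Jak3 at 0.10, Stat5a at 0.03 and Stat5b at 0.22.

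Cish, which codes for the feedback inhibitor CIS and is a direct STAT5 target, had the largest drop among 7 negative regulators. Of these 0 passed in limma, with 2 at an unadjusted p under 0.05 beside 30.5% of all tested genes. In limma-voom with median-ratio scaling 0 passed. Cish stood at 184 and 141 RPKM (control) and 32.9 and 76.9 RPKM (VavCre), so both VavCre libraries were lower. The log2 difference was −1.65 ± 0.44 (SE, adjusted p = 0.0673 in limma) and −2.24 after median-ratio scaling (adjusted p = 0.0709), and it passed with a filter of 5 CPM (adjusted p = 0.0424). Leaving out 1 library gave −2.25 to −1.05, the latter without VavCre replicate 1, with 0.167 as the lowest adjusted p in limma. The other feedback genes did not follow it: Socs1 lay at −0.03, Socs2 at 0.70 and Socs3 at 0.16, with adjusted p of 0.969, 0.186 and 0.782 in limma, and after scaling at −0.63, 0.20 and −0.44.

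Among 10 STAT5 targets and survival genes Myc, a growth factor-induced transcription factor, was called higher on the deposited scale and none lower. Of all tested genes 8.29% were called higher and 0.686% lower. Myc stood at 4.67 and 16.6 RPKM (control) and 67.3 and 80.2 RPKM (VavCre) (log2 2.90 ± 0.55, SE, adjusted p = 0.0364 in limma), and did not pass after median-ratio scaling (2.33, adjusted p = 0.119). Bcl2, the survival gene that IL-7 maintains in lymphocytes, stood at 17.0 and 16.7 RPKM (control) and 29.1 and 22.0 RPKM (VavCre) (0.56, adjusted p = 0.23 in limma), and lay at −0.01 after scaling. Of 10 tested adaptors and kinases downstream, Lck and Syk were called higher on the deposited scale, against 8.29% of all tested genes. Their log2 differences were 1.92 (adjusted p = 0.034 in limma) and 2.73 (adjusted p = 0.0263). Neither passed after scaling (adjusted p = 0.141 and 0.0823 in limma). Lck is a kinase of T cell receptor signalling and Syk of B cell receptor signalling. On the deposited scale B cell markers were higher in both VavCre libraries and 4 of 10 T cell markers were not, where 53.8% of all tested genes were higher. The part of these cells in the Lck and Syk levels was not tested.

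Of 8 transcription factors known to act on Il7r, Nr3c1 was called lower and Spi1 higher on the deposited scale, against 0.686% and 8.29% of all tested genes. Nr3c1, the glucocorticoid receptor, which induces Il7r in T cells, stood at 18.6 and 18.4 RPKM (control) and 4.69 and 4.69 RPKM (VavCre), and the libraries of each genotype lay close together. Its log2 difference was −1.78 ± 0.28 (SE, adjusted p = 0.0245 in limma), and it was the 1 gene of the pathway lists that passed after median-ratio scaling too (−2.30, adjusted p = 0.0428). Spi1, a factor of myeloid and B cells, stood at 5.56 and 4.32 RPKM (control) and 13.7 and 21.2 RPKM (VavCre) (1.61, adjusted p = 0.0411), and did not pass after scaling (1.08, adjusted p = 0.121). Foxo1, Gabpa, Runx1, Runx3, Gfi1 and Ets1 did not pass on either scale.

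In all, 4 of 47 tested genes of these lists were called higher and 1 lower on the deposited scale, against 8.29% and 0.686% of all tested genes, and 0 and 1 after median-ratio scaling, against 0.56% and 0.42%. The median log2 difference of the 47 was 0.35, beside 0.43 for all genes, and −0.21 after scaling, beside 0.04. On the deposited scale 0 of the 5 calls stood in limma when any 1 library was left out, with 8 to 14 list genes at an unadjusted p under 0.05.

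**Figure D5:**
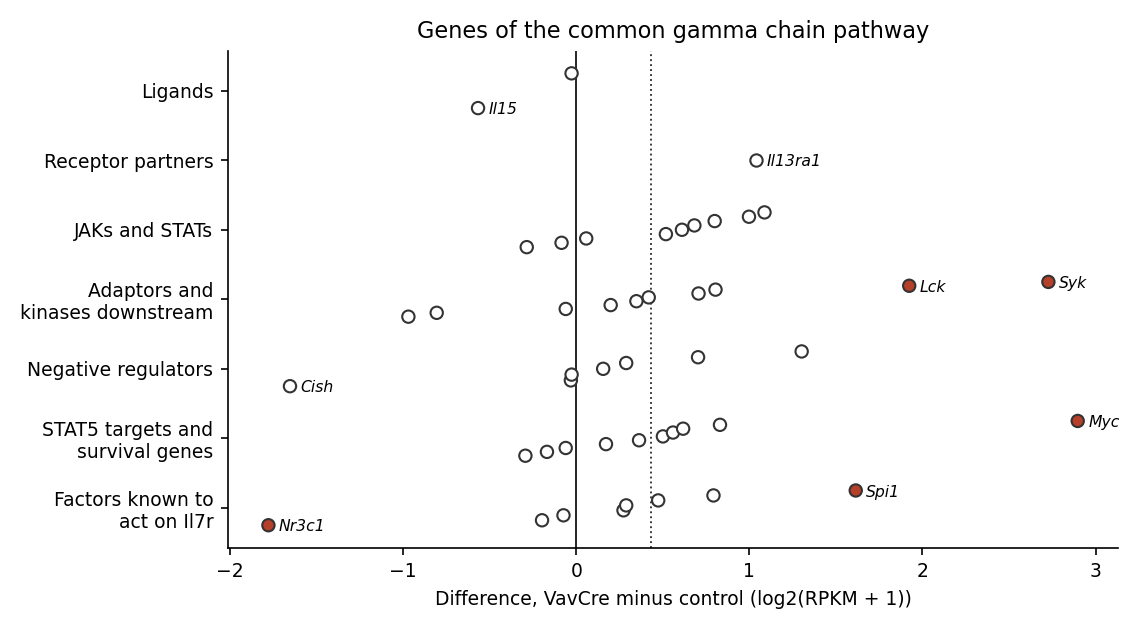
Log2 differences, VavCre minus control, of the tested genes of the common gamma chain pathway on the deposited scale, 1 point per gene, filled where the adjusted p in limma is under 0.05. Myc, Syk, Lck and Spi1 are filled on the right and Nr3c1 on the left; the dotted line marks the median of all tested genes, 0.43.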

How the data were processed

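Smart-seq2, which reads whole transcripts and has no molecular identifiers, was used on RNA of sorted LTi cells, per the labels' protocols. Subread, featureCounts and mm10 are named per the submitters' processing notes, but versions, annotation and strand setting are not given in these sources. As worked out from the numbers, the authors deposited log2(RPKM + 1) plus 0.0001, so genes without reads stand at 0.0001, and libraries are scaled to their own totals only.

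RPKM was taken back from these values. Each gene moves in steps of 1 read, which gave library totals and reads (whole within 0.001 reads, 98.6% to 99.1% of totals recovered). A floor of 3 reads was 0.123 to 0.237 CPM (reads scaled to the library total); floors cover counting error only. Symbols, coordinates and promoters came from RefSeq (GRCm38.p6) by Entrez identifier, found for 25275 of 27179 genes.

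The filter asked for 0.5226 CPM in 2 or more libraries and a total of 15 reads. Genotypes were compared in limma 3.58.1 (R 4.3.3), trended and robust, on log2(RPKM + 1), pseudocount 1, two-sided, with Benjamini-Hochberg adjustment over 14286 genes and a threshold of 0.05. It was also run on simulated data with the spread between libraries set alike for all genes. That setting is simpler than these libraries, and no result here rests on it. Differences in log2(RPKM + 1) understate changes of low genes.

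The members and lists were chosen with earlier results of these data known. Named genes are the 9 chains, Gata3, the called genes of the pathway lists, 11 pathway genes whatever their result (Jak1, Jak3, Stat5a, Stat5b, Cish, Socs1, Socs2, Socs3, Bcl2, Il7 and Il15) and the 3 genes of at least 10 CPM nearest to Il7r. Il21, Il22, Lat, Cd3d, Cd5, Cd6, Trac, Cr2, neighbouring genes and the ratios of Il7r to Crlf2 and Il2ra to Il2rb were chosen after their values were seen. So were Ncr1, Klrb1c and Klrg1. Alternatives were median-ratio, TMM and upper-quartile scaling, no filter, a filter of 5 CPM, a pseudocount of 0.1, limma-voom on recovered reads, a replicate block and leaving out each library. Python 3.11.15, numpy 2.4.6, pandas 2.3.3 and matplotlib 3.10.9 served for the other steps.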

Additional observations from a re-analysis of the deposited data

How the results depend on the processing

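The count of 1283 called genes became 140 with median-ratio, 148 with TMM and 152 with upper-quartile scaling, 1716 with the filter of 5 CPM, 845 with a pseudocount of 0.1, 223 and 93 with limma-voom before and after median-ratio scaling, 25 with a replicate block and that scaling, and 0 in limma without a filter, with 4336 at an unadjusted p under 0.05. With the replicate block alone it was 951, and 4 of the 5 called pathway genes still passed, Spi1 not (adjusted p = 0.0585 in limma). Deviations of same-numbered libraries correlated at −0.02 across genes. With 2 libraries per genotype this value cannot settle whether the numbers pair them. Leaving out 1 library gave 0 to 0 calls as deposited, where 2416 to 3808 genes had an unadjusted p under 0.05 in limma, and 0 to 33 after median-ratio scaling, with 33 only without control replicate 2.

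The receptor chains had 0 calls in each setting, except 1 (Il2rb) in scaled limma-voom, and leaving out 1 library gave 0 to 0. The 5 called pathway genes became 1 with median-ratio, TMM and upper-quartile scaling, 8 with the filter of 5 CPM, 3 with a pseudocount of 0.1, 2 and 1 with limma-voom before and after median-ratio scaling, 0 without a filter and 0 with the block and median-ratio scaling. Without 1 library they were 0 to 0, and 0 to 1 after scaling.

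Uncalled genes changed sign. Under median-ratio, TMM, upper-quartile and scaled limma-voom settings Il2ra lay at −0.46, −0.44, −0.49 and −0.47, Crlf2 at −0.27, −0.25, −0.31 and −0.29 and Socs3 at −0.44, −0.42, −0.47 and −0.44, and the block with that scaling gave −0.46, −0.27 and −0.44. Bcl2 lay at −0.0092 with median-ratio, −0.045 with upper-quartile scaling and −0.010 in scaled limma-voom, and −0.0092 with the block too, Stat5a at −0.0087 with upper-quartile scaling, and Il7 at 0.10 with a pseudocount of 0.1 and 0.084 with limma-voom. The cause was not tested. Leaving out 1 library gave log2 differences, before and then after median-ratio scaling, of 0.37 to 0.75 and −0.27 to 0.25 for Bcl2, 0.15 to 0.47 and −0.35 to −0.19 for Crlf2, −0.62 to 0.43 and −1.02 to −0.055 for Il15ra, −0.14 to 0.40 and −0.66 to −0.26 for Il2ra, −0.54 to 0.11 and −1.05 to −0.57 for Il2rg, −0.55 to 0.50 and −0.84 to 0.23 for Il7, 0.35 to 1.01 and −0.31 to 0.51 for Jak3, −0.47 to 0.41 and −0.99 to −0.27 for Socs1, 0.54 to 0.87 and −0.022 to 0.42 for Socs2, −0.16 to 0.47 and −0.83 to −0.044 for Socs3, and 0.26 to 0.96 and −0.39 to 0.45 for Stat5a. Within the scaled ranges, Il2ra lay at −0.33 and Bcl2 at −0.076 without control replicate 1, Il2ra at −0.58 and Stat5a at −0.21 without control replicate 2, Jak3 at −0.15 and Socs3 at −0.43 without VavCre replicate 1, and Crlf2 at −0.24 without VavCre replicate 2. Ratios to Il2rg without 1 library ranged, in log2 units, from −1.14 to −0.39 for Il7r, −0.89 to −0.30 for Il2rb, 0.23 to 0.46 for Il2ra, 0.36 to 0.68 for Crlf2, 2.27 to 4.69 for Il21r, and 0.82 to 1.88 for Il9r, and that of Il9r was 3.18 with a pseudocount of 0.1. Il7r, Il2rb and Il4ra stayed negative and Il21r and Il9r positive under each alternative that tested them.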
